A study of Rattus norvegicus with 16 samples.

Results

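The mitotic genes described here are 50 genes chosen by name for their roles in chromosome segregation and cell division (kinases, cyclins, spindle checkpoint, kinetochore, kinesin, spindle and cytokinesis genes), of which 48 were measured among 17245 genes in all. Birc5 and Anln had no array row naming them alone and have no value. RNA came from cells adhering to commercially pure titanium implants in the tibiae of male Sprague Dawley rats weighing 326 to 350 g. Nanoscale features were present on the AT-I surface and absent from AT-II, a microrough surface. Every rat received both surfaces, a pair of AT-I implants on one side and a pair of AT-II implants on the other, and the 2 implants of a tibia made 1 sample. All rats had ketamine and xylazine anaesthesia, lidocaine with epinephrine at the site and ketoprofen after surgery. Retrieval took place on day 2 in 4 rats and on day 4 in another 4, so each surface had a day 2 and a day 4 group. The label for the cells is only tibial, so each sample was a bulk mixture, in which fewer dividing cells and less mitotic RNA per cell cannot be told apart.

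Values are log2 levels from Affymetrix Rat Gene 1.1 ST arrays, so a difference of 1 is a doubling. The 16 arrays held 29214 rows with values from 1.82 to 14.01. Of 120 pairs of arrays the closest was that of replicates 2 and 3 of AT-II at day 2, and their mean was used as 1 sample. This left 3 samples in that group and 4 in each other group. Array spread, taken as the interquartile range over all genes, was not equal between groups. On AT-I it was 2.67 ± 0.23 at day 2 and 3.03 ± 0.35 at day 4 (SD, n = 4 each), and on AT-II 3.22 ± 0.18 (n = 3) and 3.26 ± 0.16 (n = 4). Of the marker genes listed for cell types, the 8 mature neutrophil genes had mean levels of 10.26 to 11.49 over the samples and the 11 erythroid genes 9.53 to 11.29. The 9 osteoblast genes had mean levels of 7.14 to 8.67 at day 2 and 10.16 to 10.88 at day 4, and the 5 skeletal muscle genes 5.94 to 6.54 throughout. A gene was called changed when its Benjamini-Hochberg adjusted p in limma, taken over all 17245 genes, was under 0.05.

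Entry into mitosis is driven by Cdk1 bound to cyclins A and B, which the Cdc25 phosphatases switch on and the kinases Plk1, Aurka and Aurkb reinforce. The spindle checkpoint (Bub1, Bub1b, Bub3, Mad2l1, Ttk) holds Cdc20 and the anaphase promoting complex until every kinetochore is attached, after which securin (Pttg1) is destroyed and separase (Espl1) cuts cohesin. Most of these genes are transcribed late in the cell cycle, under Foxm1, Mybl2 and the DREAM and MuvB complexes, which act through a short element called CHR (TTTGAA in its commonest form) and through CCAAT boxes bound by NF-Y. In marrow the dividing cells are mostly precursors of the blood lineages, while wound stroma and young osteoblast precursors divide as bone heals.

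The promoters of the genes are shown first because they carry these elements in letters. The sequences are the 150 bases before the annotated start, from RefSeq on the GRCr8 build, written 5′ to 3′ on the gene's strand. Capitals mark TTTGAA or CCAAT on either strand, so a reversed match reads TTCAAA or ATTGG. Cdk1 lies at chr20:19265143-19265292 on the plus strand, Ccnb2 at chr8:79981659-79981808, Cdc20 at chr5:137255800-137255949, Top2a at chr10:84473094-84473243, Aurka at chr3:181560770-181560919 and Cenpj at chr15:34802422-34802571, all 5 on the minus strand. The first 4 show both elements near the start. Aurka is shown for having neither in this window, and whether its annotated start is the one used in these cells was not tested. Cenpj is shown for being the member whose values departed most from the others.
Cdk1: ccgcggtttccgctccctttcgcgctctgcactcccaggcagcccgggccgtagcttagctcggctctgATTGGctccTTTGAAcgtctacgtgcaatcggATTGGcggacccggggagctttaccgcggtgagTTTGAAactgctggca
Ccnb2: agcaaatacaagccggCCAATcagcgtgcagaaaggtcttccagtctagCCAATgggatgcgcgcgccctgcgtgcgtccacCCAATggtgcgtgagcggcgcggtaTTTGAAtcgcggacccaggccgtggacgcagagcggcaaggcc
Cdc20: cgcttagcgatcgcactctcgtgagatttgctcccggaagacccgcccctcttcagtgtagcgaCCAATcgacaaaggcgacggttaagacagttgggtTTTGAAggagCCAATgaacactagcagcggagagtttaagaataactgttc
Top2a: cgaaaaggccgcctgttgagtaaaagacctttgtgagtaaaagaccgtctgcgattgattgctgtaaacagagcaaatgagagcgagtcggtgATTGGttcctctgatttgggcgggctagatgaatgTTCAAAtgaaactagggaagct
Aurka: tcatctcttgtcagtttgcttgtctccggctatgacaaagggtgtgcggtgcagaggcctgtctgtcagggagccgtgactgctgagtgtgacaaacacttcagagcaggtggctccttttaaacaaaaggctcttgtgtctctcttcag
Cenpj: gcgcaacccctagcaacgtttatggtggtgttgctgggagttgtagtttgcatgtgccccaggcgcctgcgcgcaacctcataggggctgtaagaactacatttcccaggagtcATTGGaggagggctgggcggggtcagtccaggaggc

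RefSeq held windows of 300 bases (250 before the start and 50 after it) for 43 of the 50 genes, 44 windows in all. The others were Aurkb, Ccna2, Ube2c, Incenp, Tpx2, Racgap1 and Foxm1. TTTGAA stood in 27 of the 44 windows (61.4%), against 18.3% of all 33469 windows in the table, with both strands searched. CCAAT stood in 33 of the 44 (75%), against 37.5% of all windows, and both motifs in 22 (50%), against 7.41%; the motifs overlapped in 2 windows. In Cdk1 the TTTGAA matches began 72 and 16 bases before the start, in Cdc20 51 bases before it and in Ccnb2 43 and 214 bases before it. From day 2 to day 4 on AT-II the 25 measured genes with TTTGAA had a median difference of -0.41 and the 16 without it -0.44. A match of letters is a description of the window and not a binding site.

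The clearest feature of the mitotic genes was that they were high or low together in a sample. For each gene, the deviation of each sample from its own group mean was given a sign, and this sign was set against the median deviation of the other mitotic genes in that sample. In 46 of 48 genes the signs were the same in at least 12 of 15 samples (95.8%), against 11.5% of all genes tested. The exceptions were Cdc25c, a phosphatase that activates Cdk1, with 10 of 15 samples, and Cenpj, a centriole elongation protein despite its centromere name, with 7 of 15. The count leaned on AT-II day 2 replicate 4, without which it was 19 of 48 genes at 12 of 14 samples (6.45% of all genes), and the 2 remaining samples of that group had nearly equal mitotic medians of 9.11 and 9.07. With any other single sample left out the count was 35 to 46, with 5.42% to 9.34% of all genes.

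**Figure D1:**
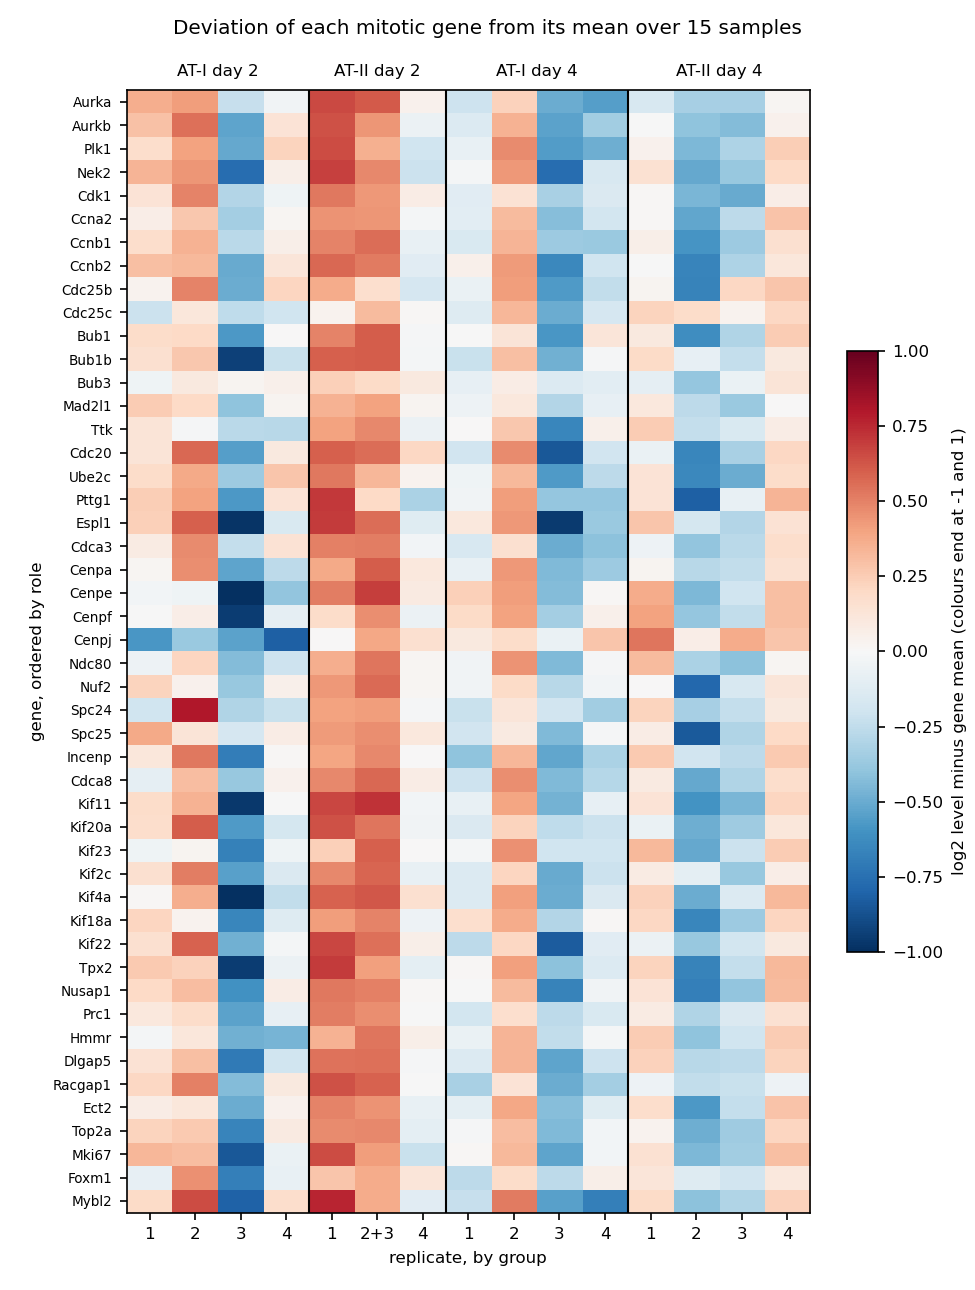
Deviation of each of the 48 measured mitotic genes (rows, ordered by role) from its mean over 15 samples (columns, by group and replicate), in log2 units, with red above and blue below the mean; colours end at -1 and 1. Whole columns share a colour, as in AT-I day 2 replicate 3 (blue in nearly all rows), whereas the Cenpj row is blue in all 4 AT-I day 2 samples.

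Single samples took the same place for gene after gene. AT-I day 2 replicate 3 was the lowest of its group in 45 of 48 mitotic genes, compared with 27.2% of all genes, and its median deviation was -0.54. AT-II day 2 replicate 4 was lowest in 47 (30.6% of all genes) with a median deviation of -0.34. AT-I day 4 replicate 2 was highest in 47 (33.3% of all genes) with a median deviation of 0.43. The low ends of the day 4 groups were AT-I replicate 3, lowest in 42 genes (37.3% of all genes), and AT-II replicate 2, lowest in 38 (28.1%). The median mitotic level ran from 8.02 to 8.87 within AT-I day 2 alone, a wider interval than that between the lowest and highest group means (8.43 and 8.90). The within-group SD had a median of 0.35 over the 48 genes against 0.23 over all genes.

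Other cell-cycle genes and some blood lineage markers took the same sides as the mitotic genes, and bone and stromal markers did not. Signs matched in at least 12 samples for 16 of 18 condensin and cohesin genes, 25 of 32 other mitotic and cytokinesis genes, 22 of 31 DNA replication genes, and 9 of 11 erythroid markers. They matched for 6 of 11 neutrophil precursor, 4 of 8 mature neutrophil, 4 of 6 B lineage and 4 of 6 megakaryocyte markers, but for 0 of 9 osteoblast, 0 of 6 stromal, 0 of 10 macrophage, 0 of 8 T cell, 0 of 5 osteoclast and 0 of 5 skeletal muscle markers and 1 of 6 endothelial markers. Mean erythroid levels were lowest in the very samples with low mitotic levels, at 9.79 in AT-I day 2 replicate 3 (group range 9.79 to 11.04), 10.27 in AT-II day 2 replicate 4 (10.27 to 11.29), 9.64 in AT-I day 4 replicate 3 (9.64 to 10.98) and 9.53 in AT-II day 4 replicate 2 (9.53 to 10.84). Mean B lineage levels were also lowest in these samples, at 7.04, 7.72, 7.46 and 7.29 in the same order. Without AT-II day 2 replicate 4 the erythroid count was 0 of 11. The spread of the array was also lowest in AT-I day 2 replicate 3 (2.48) and its day 4 counterpart, but AT-II day 2 replicate 4 (3.19) lay between its group's others (3.05 and 3.41). With the spread as a covariate, 32 of 48 mitotic genes (6.45% of all genes) and 8 of 11 erythroid markers still matched. The part of cell makeup and of array spread in this shared variation was not tested further.

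**Figure D2:**
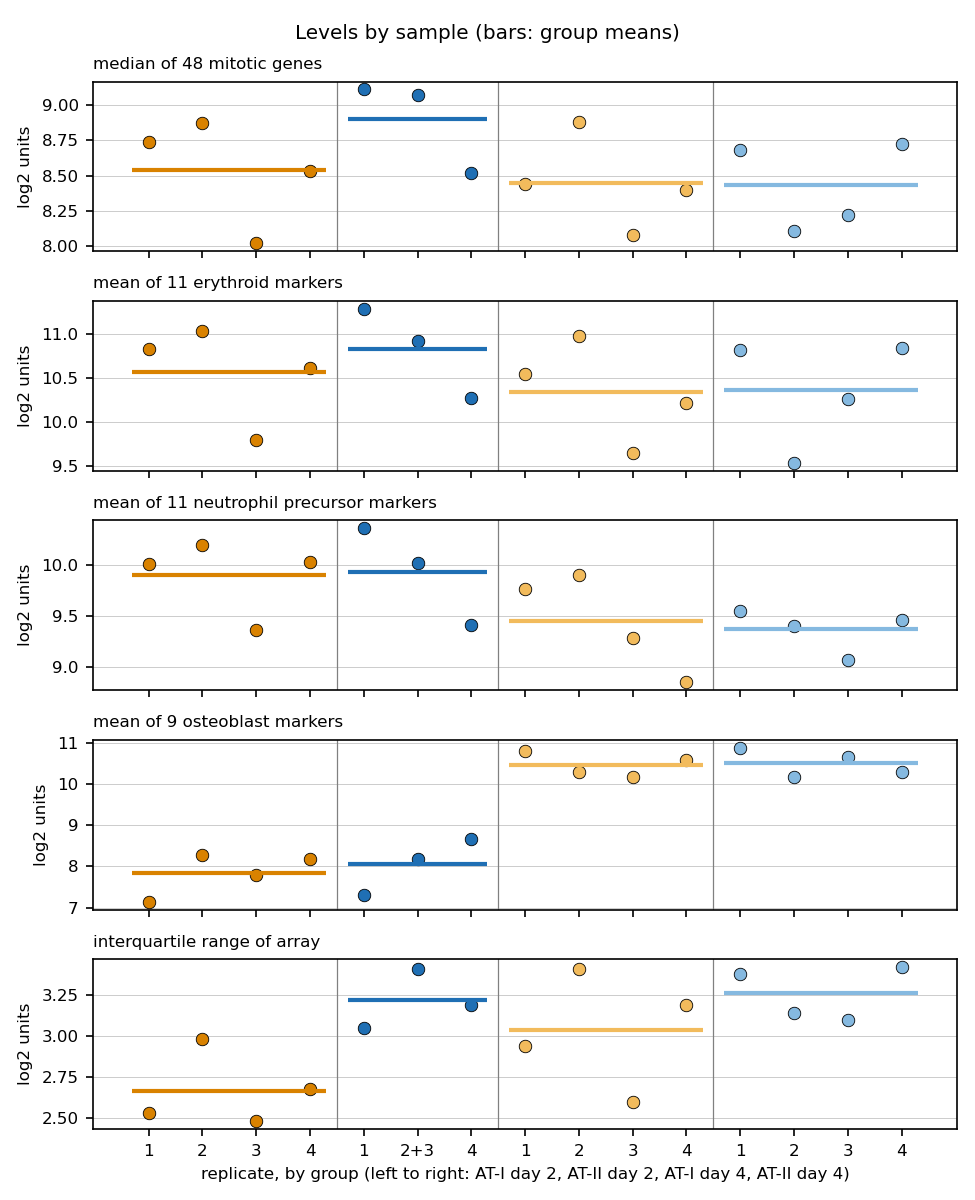
Levels in each of the 15 samples (points; bars are group means) for the median of 48 mitotic genes, the mean of the erythroid, neutrophil precursor and osteoblast markers, and the interquartile range of each array, all in log2 units. The mitotic and erythroid panels are lowest in the same sample of every group, as is the B lineage mean, which is not drawn. The neutrophil precursor panel is lowest in that sample at day 2 but not at day 4. The osteoblast panel is set by the day, at 7.14 to 8.67 at day 2 and 10.16 to 10.88 at day 4.

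From day 2 to day 4 on AT-II, the microrough surface, the fitted levels of most mitotic genes were lower at day 4, without any single gene passing the test. The difference was below 0 for 46 of 48 genes, with a median of -0.42 and a range of -0.66 to 0.13, whereas 59.7% of all genes were below 0 with a median of -0.05. Because the genes varied together, these are not 46 separate results. The mitotic medians of the samples overlapped, at 9.11, 9.07 and 8.52 at day 2 and 8.68, 8.11, 8.22 and 8.72 at day 4. After adjustment 0 of 48 genes were called in either direction (smallest adjusted p = 0.148, limma), against 3.13% of all genes called higher and 0.203% called lower. At an unadjusted p under 0.05, 13 genes (27.1%) were lower against 4.8% of all genes, and 0 were higher against 8.18%. The groups did not overlap, day 4 lower, for 5 genes (10.4%; Aurka, Cdc20, Cdk1, Foxm1 and Racgap1) against 7.63% of all genes, which is near the background.

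Among the mitotic kinases, Aurka, which matures centrosomes and the spindle, stood at 7.53, 7.49 and 6.92 in the AT-II day 2 samples and at 6.71, 6.54, 6.54 and 6.89 at day 4. All day 4 values lay below the lowest day 2 value, only barely for replicate 4, and the difference of -0.64 ± 0.21 (SE) had adjusted p = 0.148 (limma). The 4 kinases had a median of -0.49, and Plk1, a kinase of mitotic entry and cytokinesis, had -0.39 ± 0.28. Cdk1, the kinase that drives mitotic entry, stood at 9.48, 9.39 and 9.03 at day 2 and at 8.97, 8.50, 8.45 and 9.02 at day 4, again without overlap but with replicate 4 of each day close together. Its difference was -0.57 ± 0.20 (adjusted p = 0.178). Its partners Ccnb1 and Ccna2 had -0.51 ± 0.23 and -0.41 ± 0.21, and Cdc25c, at 6.64, 6.92 and 6.62 at day 2 and 6.83, 6.79, 6.64 and 6.81 at day 4, had 0.04 ± 0.17, with the day 4 values inside the day 2 range.

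The anaphase genes had a median of -0.46 on AT-II. Cdc20, the activator of the anaphase promoting complex, stood at 9.83, 9.79 and 9.44 at day 2 and at 9.17, 8.58, 8.91 and 9.44 at day 4, a difference of -0.66 ± 0.29 (adjusted p = 0.337). The day 4 group reached up to the lowest day 2 sample in replicate 4 only. The 7 kinesins, motors that build the spindle and move chromosomes, had a median of -0.48, from -0.32 for Kif23 to -0.63 for Kif11, the motor that separates the spindle poles. Of the 8 centromere, kinetochore and centriole genes, Nuf2 and Spc25 of the Ndc80 complex had -0.54 ± 0.21 and -0.55 ± 0.22, and the median was -0.42. The 5 spindle checkpoint genes had a median of -0.39, with Bub3 nearest to 0 (-0.28 ± 0.12). Bub3 also had the narrowest spread of all members within groups (SD 0.13), at 7.75, 7.70 and 7.61 at day 2 and 7.42, 7.12, 7.44 and 7.64 at day 4, so that day 4 replicate 4 lay inside the day 2 range and the other 3 below it. The transcription factors Foxm1 and Mybl2 had -0.28 ± 0.21 and -0.41 ± 0.33. The usual proliferation markers overlapped widely: Mki67 stood at 11.80, 11.57 and 10.93 at day 2 and 11.30, 10.70, 10.80 and 11.45 at day 4 (-0.38 ± 0.30), and Top2a, which untangles sister chromatids, had -0.44 ± 0.25.

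**Figure D3:**
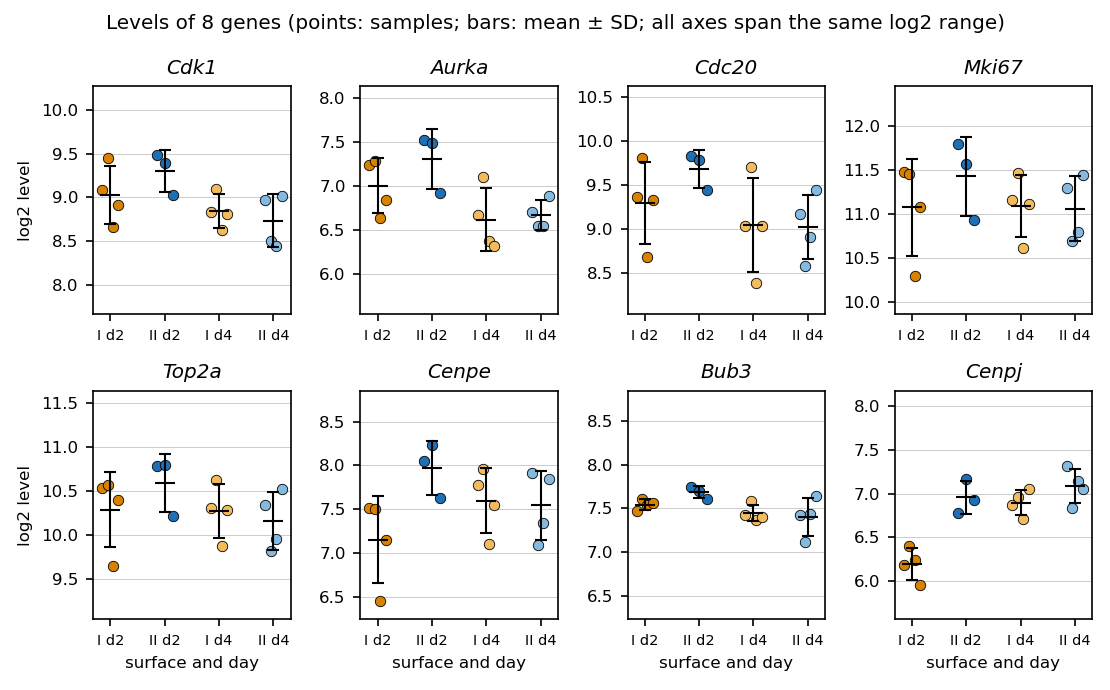
Log2 levels of 8 mitotic genes by surface and day (I and II are AT-I and AT-II, d2 and d4 the days; points are samples, bars the mean ± SD, n = 3 for AT-II at day 2 and 4 otherwise; every axis spans the same number of units). Cdk1 and Aurka show no overlap between the AT-II days, Bub3 is tight within groups, Cenpe is lowest in 1 AT-I day 2 sample at 6.46, and Cenpj is low in all 4 AT-I day 2 samples.

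The count at an unadjusted p depended on single samples. Among AT-II samples of day 2, leaving out replicate 1 gave 1 gene (2.08%, against 3.36% of all genes), leaving out the averaged sample gave 2 (4.17% against 2.92%) and leaving out replicate 4 gave 28 (58.3% against 5.51%). Among those of day 4, leaving out replicate 2 gave 3 (6.25% against 3.99%), replicate 3 gave 6 (12.5% against 3.35%) and replicate 4 gave 23 (47.9% against 5%). The members' share was thus near that of all genes when either of the high day 2 samples was left out. The median stayed between -0.62 and -0.32. Erythroid markers had a median of -0.51 in the same comparison (0 of 11 called) and megakaryocyte markers -0.43 (0 of 6 called). Neutrophil precursor markers had -0.51 (0 of 11 called), with 4 lower at an unadjusted p under 0.05 against 4.8% of all genes. Osteoblast markers had 2.58, with 8 of 9 genes called higher as fitted (3.13% of all genes) and 5 of 9 without AT-II day 2 replicate 1 (1.27%). Stromal markers had 0.45, with 1 of 6 called higher (3.13%). The part of a changing cell mixture in the mitotic values was not tested.

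On AT-I, the nanoscale surface, the mitotic genes other than Cenpj showed no called change between the days. The median difference was -0.10, from -0.38 for Aurka to 0.70, with 32 of 48 genes below 0 against 55.2% of all genes and a median of -0.05 over all genes. Cenpj rose, 1 of 48 genes (2.08%) against 8.84% of all genes called higher, and 0 fell against 2.66% called lower. At an unadjusted p under 0.05 the same gene was the only one higher (16% of all genes), and 0 were lower (11.9%). Mki67 stood at 11.48, 11.46, 10.30 and 11.08 at day 2 and 11.16, 11.47, 10.62 and 11.12 at day 4 (0.01 ± 0.27), and Top2a at 10.53, 10.57, 9.65 and 10.40 and then 10.30, 10.62, 9.87 and 10.28 (-0.02 ± 0.23). In both genes replicate 3 was lowest on each day and the ranges overlapped almost fully. The 4 kinases had a median of -0.26, the 5 anaphase genes -0.25, the 7 kinesins 0.05 and the 8 centromere, kinetochore and centriole genes 0.04. The all-gene shares moved with the scaling: 1525 genes rose and 458 fell as deposited, against 991 and 1504 with each array centred on its median, which shifted the median of all genes from -0.05 to -0.21 and that of the mitotic genes to -0.25. Single samples turned the sign of the mitotic median, which was 0.03 without AT-I day 2 replicate 2 and 0.04 without AT-I day 4 replicate 3, and genes lower at an unadjusted p numbered 5 without AT-I day 2 replicate 3 (10.4%, as for all genes) and 3 without AT-I day 4 replicate 2 (6.25% against 9.34%). On AT-II the corresponding all-gene counts were 540 and 35 as deposited, 366 and 141 after centring, and 659 and 154 with the array spread as a covariate. With that covariate the mitotic median on AT-I was -0.42 and 3 genes were lower (Cdc20, Cdca3 and Kif22; 6.25% against 2.13% of all genes), while on AT-II the median was -0.46 and Cdc20 and Cdk1 were lower (4.17% against 0.893%).

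Cenpj was the exception among the members. It stood at 6.19, 6.40, 6.24 and 5.96 on AT-I at day 2, at 6.78, 7.16 and 6.93 on AT-II at day 2, at 6.87, 6.96, 6.71 and 7.05 on AT-I at day 4 and at 7.31, 6.84, 7.14 and 7.05 on AT-II at day 4. All 4 AT-I day 2 samples lay below every sample of the other groups, and the other 3 groups overlapped. The rise on AT-I was 0.70 ± 0.14 (adjusted p = 0.00324, limma, n = 4 and 4) and passed under all 29 other settings run for it, at 0.53 to 0.79 with adjusted p = 0.00165 to 0.0248. On AT-II the difference between the days was 0.13 ± 0.15 (adjusted p = 0.808), and the difference between the surfaces' time courses, 0.58 ± 0.20, did not pass (adjusted p = 0.924), so a rise particular to AT-I was not shown. AT-I day 2 was also the group with the narrowest arrays.

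Between the surfaces at day 2 every mitotic gene was lower on AT-I than on AT-II in the deposited values. The differences ran from -0.82 to -0.06 with a median of -0.35, and 48 of 48 were below 0 against 57.8% of all genes with a median of -0.09. Every member had a mean level of at least 6.61. Among the 10459 genes with a mean of at least 6, the median was -0.24. Of these genes, 24.9% were lower and 2.51% higher at an unadjusted p under 0.05. Because the mitotic genes varied together, their 48 signs are not 48 separate results, and the mitotic medians of the samples overlapped between the surfaces. No mitotic gene passed the adjusted test (0 of 48, smallest adjusted p = 0.128, limma, against 0% of all genes). At an unadjusted p under 0.05, 6 genes (12.5%, namely Bub1b, Cenpe, Cenpj, Hmmr, Kif4a and Prc1) were lower against 14.8% of all genes. The share of genes lower was thus near the background, and 0 were higher against 12.5%. The groups did not overlap for 2 genes (4.17%), Cenpe and Cenpj, against 11.3% of all genes lower without overlap. The direction turned when array spread entered as a covariate, with a median of 0.16, and the median was -0.21 after centring and -0.12 after a repeated quantile normalization.

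Cenpe, the kinesin that carries chromosomes to the metaphase plate, stood at 7.51, 7.50, 6.46 and 7.15 on AT-I and at 8.05, 8.23 and 7.63 on AT-II at day 2. Replicate 3 was far below the other AT-I samples, and the highest AT-I value was just below the lowest AT-II value. The difference was -0.82 ± 0.28 (adjusted p = 0.129). Cenpj differed by -0.76 ± 0.15 (adjusted p = 0.128) and passed in 5 of 29 other settings, with adjusted p = 0.0164 to 0.996 over all of them. Bub1b, a kinase-like checkpoint protein, stood at 7.99, 8.10, 6.90 and 7.61 on AT-I and 8.43, 8.44 and 7.81 on AT-II, with overlap through AT-II replicate 4 (-0.58 ± 0.26). Cdk1 stood at 9.09, 9.45, 8.66 and 8.91 on AT-I against 9.48, 9.39 and 9.03 on AT-II, and Aurka at 7.24, 7.29, 6.64 and 6.84 against 7.53, 7.49 and 6.92; in both genes the ranges overlapped. By role the medians were -0.43 for centromere, kinetochore and centriole genes, -0.47 for spindle assembly genes, -0.42 for kinesins, -0.38 for the checkpoint, and -0.26 both for the kinases and for the cyclins with Cdk1 and the Cdc25 phosphatases. Without AT-I day 2 replicate 3 the median over all 48 was -0.17, and 2 genes (4.17%) were lower at an unadjusted p under 0.05, against 11.7% of all genes. Without AT-II day 2 replicate 4 the median was -0.53 and 18 genes were lower (37.5% against 10.3%). Without AT-I day 2 replicate 2 it was -0.48 and 17 were lower (35.4% against 18.4%), and Cenpj passed the adjusted test, as did 711 of all genes. That count was also 2 without AT-I day 2 replicate 4 (12.9% of all genes) or the averaged AT-II sample (5.75%), and 3 without AT-II day 2 replicate 1 (17.9%). Erythroid markers had a median of -0.29 and stromal markers -0.40 in this comparison, with 0 called of 11 and 0 of 6. Endothelial markers had -0.45, all 6 below 0, with 0 called. Of these 6 markers, 3 were lower at an unadjusted p under 0.05, against 14.8% of all genes. The groups did not overlap, AT-I lower, for 3 of the 6, against 11.3% of all genes. The part of the endothelial markers in the mitotic values was not tested.

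At day 4 the mitotic genes had a median difference between the surfaces of 0.02, from -0.27 to 0.21, with 20 of 48 below 0 against 58.1% of all genes. After adjustment 0 of 48 passed (smallest adjusted p = 0.913, limma), against 0% of all genes, and at an unadjusted p under 0.05 there were 0 higher and 0 lower against 2.54% and 1.44%. The SE of a member's difference had a median of 0.23, so differences of that size, and moderately larger ones, could not be resolved. Ccna2 stood at 9.46, 9.88, 9.14 and 9.38 on AT-I and 9.57, 9.04, 9.30 and 9.85 on AT-II (0.02 ± 0.20), and Plk1 at 9.34, 9.89, 8.86 and 8.93 against 9.46, 8.97, 9.11 and 9.66 (-0.04 ± 0.26). Each surface had high and low samples for both genes, with overlapping ranges. Cdc25c had the lowest difference, -0.27 ± 0.15, and Incenp, the scaffold of the chromosomal passenger complex, -0.24 ± 0.24. With 1 sample left out the median ran from -0.13 to 0.12, and with the array spread as a covariate it was 0.22.

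**Figure D4:**
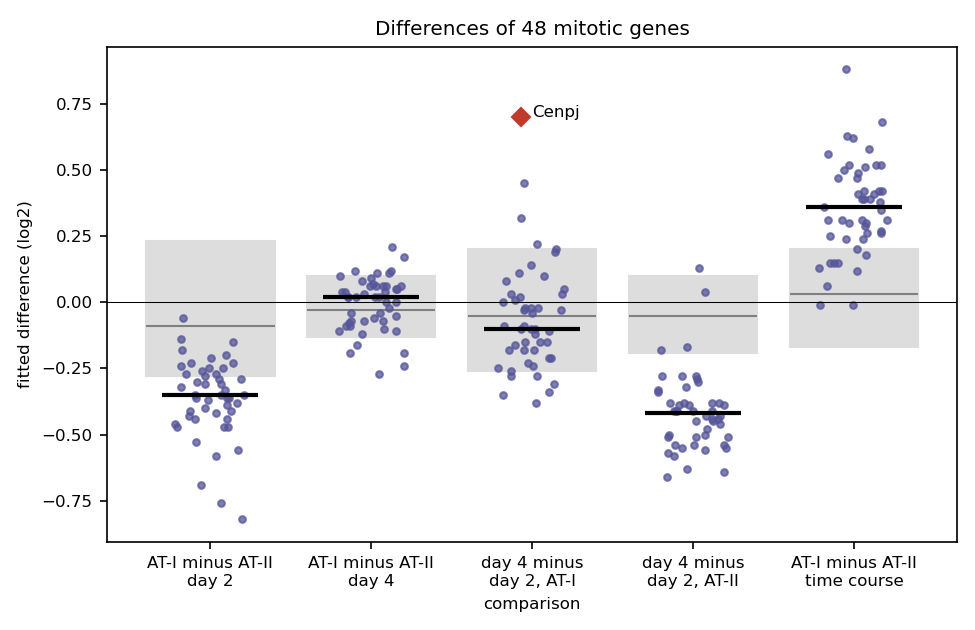
Fitted log2 differences of the 48 mitotic genes (points) in each comparison, with their median (black bar), beside the middle 50% (grey box) and median (grey line) of all 17245 genes; the red diamond is the gene that passed the adjusted test. All points lie below 0 between the surfaces at day 2, with a median of -0.35 (0.16 with array spread as a covariate), and the points lie around 0 at day 4, with a median of 0.02.

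The 2 time courses were compared directly by the interaction of surface and day, which uses the samples of all 4 groups. The median interaction over the mitotic genes was 0.36 (AT-I minus AT-II), 2 of 48 were below 0 against 45.8% of all genes, and 0 of 48 passed (smallest adjusted p = 0.924, limma) against 0% of all genes. At an unadjusted p under 0.05, Cenpe (0.88 ± 0.38) and Cenpj were higher, 4.17% against 2.55% of all genes, and 0 were lower against 1.55%. Among genes with a mean of at least 6, as every member has, the median interaction was 0.13. Of those genes, 4.45% were higher, near the members' share, and 0.325% lower. A difference between the time courses was therefore not shown for any mitotic gene. The comparisons share samples: AT-II day 2 enters the day 2 difference, the AT-II time course and the interaction, and its mitotic median of 8.90 ± 0.33 (SD, n = 3) was the highest of the groups, beside 8.54 ± 0.37 on AT-I at day 2, 8.45 ± 0.33 on AT-I at day 4 and 8.43 ± 0.31 on AT-II at day 4 (n = 4 each). The ranges of all 4 groups overlapped. With 1 sample left out the median interaction ran from 0.20 to 0.53, with 1 to 6 genes higher at an unadjusted p (6, or 12.5% against 1.78% of all genes, without AT-II day 2 replicate 4), and with the array spread as a covariate it was 0.05.

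**Figure D5:**
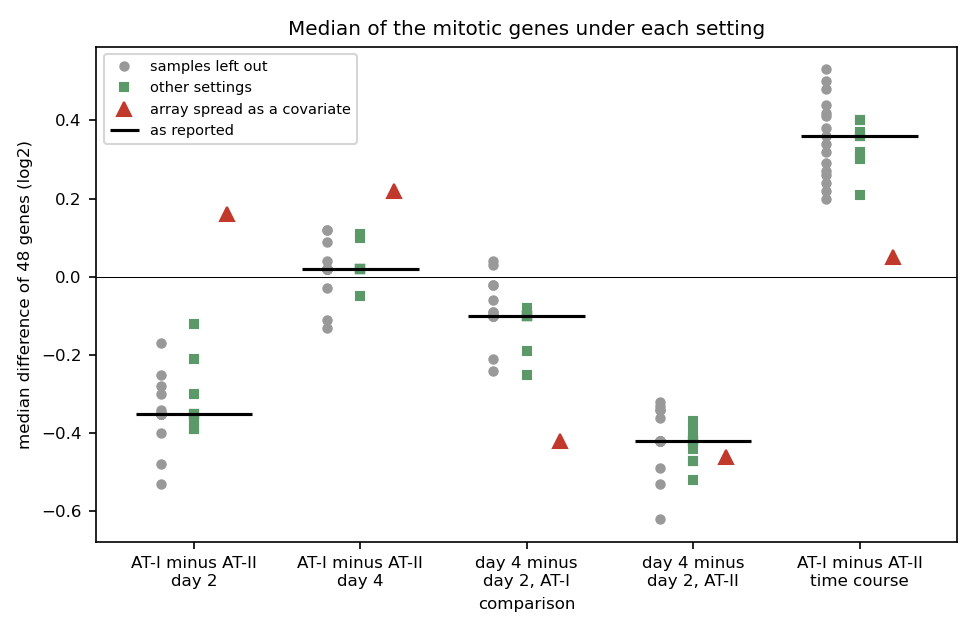
Median log2 difference of the 48 mitotic genes in each comparison as reported (black bar) and under other settings (green squares). Grey circles leave out single samples or both day 2 samples numbered 1, and red triangles have array spread as a covariate. Between the surfaces at day 2 the covariate moves the median from -0.35 to 0.16, whereas between the days on AT-II every setting drawn lies between -0.62 and -0.32.

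The rest of the cell-cycle genes followed the mitotic ones in part. From day 2 to day 4 on AT-II the 31 DNA replication genes had a median of -0.47, all below 0, with 0 called. At an unadjusted p under 0.05, 19 of them were lower, against 4.8% of all genes. This count rests on the same AT-II samples as the mitotic count, and its values with single samples left out are not given. Gins2, a helicase subunit, and Gmnn, the licensing inhibitor geminin, had -0.47 ± 0.13 (adjusted p = 0.0741) and -0.48 ± 0.14 (adjusted p = 0.0842). Of 32 other mitotic and cytokinesis genes 1 was called lower, against 0.203% of all genes. This gene, Cep55, a midbody protein of abscission, fell by 0.55 ± 0.14 on the log2 scale (adjusted p = 0.0346, limma). Its call held in 22 of 29 other settings and was lost with AT-II day 2 replicate 1 omitted, with the averaged AT-II day 2 sample omitted (adjusted p = 0.206) without any 1 of the 4 AT-II day 4 samples, and without both day 2 samples numbered 1. On AT-I the day 4 medians were -0.17 for DNA replication and 0.03 for the other mitotic genes, with 0 called in both lists.

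Subunits of the anaphase promoting complex, which cells hold at steadier levels through the cycle, took the side of the mitotic median in at least 12 samples for 2 of 14 genes (14.3%, near the 11.5% of all genes), and their median from day 2 to day 4 was 0.14 on AT-I and -0.08 on AT-II. On AT-I 2 of these 14 genes were called higher, against 8.84% of all genes. Cdc16 and Anapc4, both core subunits, rose on AT-I by 0.66 ± 0.13 (adjusted p = 0.00297, limma) and 0.44 ± 0.13 (adjusted p = 0.0361). The call of Cdc16 held in 29 of 29 other settings, and that of Anapc4 in 16. Among 20 constitutive centromere and centriole genes 1 was called higher on AT-I, against the same 8.84%. This was Cep63, a centriole duplication protein, which rose by 0.51 ± 0.15 (adjusted p = 0.0418, limma), a call that held in 15 of 29 settings. On AT-II 0 genes of either list were called, and 0 of all genes passed in the interaction. A rise particular to AT-I was therefore not shown for these genes. Anapc4 lost its call without replicate 1, 2 or 3 of AT-I at day 2 and without replicate 1, 3 or 4 at day 4 as well as after centring, repeated quantile normalization, array weights, the spread covariate, a fit of only the groups compared and the omission of both day 2 samples numbered 1 (adjusted p up to 0.122). Cep63 lost it without replicate 2, 3 or 4 of AT-I at day 2 or replicate 1, 2 or 4 at day 4, and on AT-II without replicate 4 of day 2 or replicate 2 or 4 of day 4, and after centring, repeated quantile normalization, the spread covariate and a fit of only the groups compared (up to 0.229). G1 cyclins and kinases (8 genes) had medians of -0.37 both between the surfaces at day 2 and between the days on AT-II, and CDK inhibitors and pocket proteins (9 genes) had -0.17 and -0.06, with 0 called in each. Ccnd1, the D-type cyclin that answers growth signals, had 0.78 ± 0.36 on AT-II (adjusted p = 0.379) while Ccne2, an S phase cyclin, had -0.65 ± 0.28 (adjusted p = 0.329).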

How the data were processed

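RNA of implant-adherent cells was measured on 16 arrays. The deposited log2 values came from RMA, and the submitters' processing notes name Affymetrix Expression Console without a version; that the logarithm has base 2 is taken from RMA's usual output. Rows naming 1 gene by the platform annotation (18644 of 29214; 962 named several genes and 9608 none) were kept. Of these, 18460 matched the GRCr8 gene table by identifier, with 0 symbols changed. Where several rows named a gene (879 genes), its brightest row by mean level was kept.

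Groups came from the sample titles. Differences were fitted in R 4.3.3 with limma 3.58.1 (lmFit, then eBayes, two-sided, group means, all 17245 genes, residual degrees of freedom 11, prior 4.44), which gave each SE and p-value. The code was tested on simulated data with independent genes and shifts larger than those of the mitotic genes. That test does not bear on genes that vary together. AT-II day 2 replicates 2 and 3 were averaged: across the 4036 brightest rows (mean level over 9) their difference had an SD of 0.109, and that of any other pair was at least 0.294. The p-values between surfaces ignore any pairing of the tibiae of a rat, since no label links a replicate number to a rat. Members and lists were chosen with earlier results of these data known. Per-sample values are given for the 2 members with the smallest p per comparison and for 12 members listed with the rule, of which Birc5 was not measured; other lists name up to 3 genes with the smallest p. Per-sample values of Cdc20 were added after they were seen. Medians of lists carry no test. Besides the reported fit, 29 settings were run: 15 left out 1 sample, and others changed the scaling, row choice, filter (mean under 6), weights, prior, samples in the fit, replicate block and a covariate for array spread. Python 3.11.15, pandas 2.3.3, numpy 2.4.6 and matplotlib 3.10.9 were used. Precision is limited by how few arrays there are.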

Additional observations from a re-analysis of the deposited data

How the results depend on the processing

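The count of called mitotic genes between the surfaces at day 2, 0 as reported, was 2 with all 16 arrays counted separately (4.17% lower, against 6.68% of all genes), 4 with array weights (8.33% against 11.6%), 1 with the replicate block and the averaged sample as number 2 (2.08% against 0.336%), and 5 with the replicate block and 16 arrays (10.4% against 14.9%); leaving out 1 sample gave 0 to 1. The median there, -0.35, was 0.16 with the array spread as a covariate, with 15 samples and, added after the data were seen, with 16 arrays. Called genes on AT-I between the days numbered 1 as reported, and in each setting Cenpj was the gene called higher. A repeated quantile normalization gave 2, with 2.08% lower (3.7% of all genes) and 2.08% higher (7.05%). The spread covariate gave 4, with 6.25% lower (2.13%) and 2.08% higher (5.49%). With 16 arrays and that covariate there were 6, with 10.4% lower (2.92%) and 2.08% higher (6.22%). On AT-II, 0 as reported, 2 were lower with the spread covariate (4.17% against 0.893%). There was 1 with array weights (2.08% against 1.79% of all genes) and 13 with 16 arrays and the covariate (27.1% against 2.51%). Leaving out 1 sample gave 1 throughout on AT-I and 0 on AT-II, at day 4 and for the interaction. Mitotic genes lower at an unadjusted p are given next with the share of all genes lower in the same setting. On AT-II between the days, 13 as reported (4.8%), they were 26 with 16 arrays (7.81%), 28 centred (13.4%), 20 quantile normalized (5.96%), 21 weighted (10.9%), 33 with the spread covariate (9.19%), 7 with the replicate block and the averaged sample as number 2 (4.3%), and 1 without both day 2 samples numbered 1 (3.97%). Between the surfaces at day 2, 6 as reported (14.8%), they were 16 with 16 arrays (21.6%), 2 centred (4.63%), 2 quantile normalized (6.28%), 12 weighted (22.9%), 1 with the covariate (2.66%), 19 with the block and 16 arrays (25.5%), and 3 without both numbered 1 (14.4%). On AT-I between the days, 0 as reported (11.9%), they were 4 centred (26.5%), 5 quantile normalized (12.6%) and 24 with the covariate (11.2%). Genes on the side of the mitotic median ranged from 19 to 46 with 1 sample left out.

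Replicate numbers gave same-number correlations of 0.646, 0.621, -0.311 and 0.199 at day 2 and 0.131, -0.339, 0.468 and 0.201 at day 4, so they were not taken to pair samples; beyond the counts above, the block changed no call of a named mitotic gene outside the day 2 comparison of surfaces. Of 1872 values of 13 named mitotic genes under these settings, 1858 kept their side of the threshold and 14 newly passed, 0 lost a call, and 126 that passed in neither setting changed sign. Fitting only the groups compared gives no interaction value. The cause of these shifts was not tested.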
